A study of Homo sapiens with 12 samples.

Results

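HMOX1, NQO1, GCLM, GCLC, TXNRD1, SRXN1, SLC7A11, OSGIN1 and FTL are antioxidant and iron-handling genes whose transcription is driven by the factor NRF2. These 9 genes, of 27522 gene names on the array, were followed across 4 siRNA conditions to ask whether a higher level of HMOX1 after knock-down was shared by other NRF2 targets. Every probe whose transcript accession leads to one of the 9 genes in the RefSeq gene table was taken, which gave 10 probes, 2 of them for FTL. The genes were chosen by name after the measured HMOX1 change of each knock-down against control, so its values are given below as a description without a test. Whether the values of the other 8 genes also entered the choice was not recorded, so their adjusted p-values set each gene against the spread between arrays and are not independent support for a shared change.

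The cells were U2OS, a human osteosarcoma line, given 20 nM of siRNA by lipofection and kept in culture for 48 h. One group of arrays had a control siRNA, and the others had siRNA against DBP5, against GLE1 or against IPPK, with 3 arrays per siRNA from experiments that the methods call independent. DBP5 (gene DDX19B) is an RNA helicase at the cytoplasmic face of the nuclear pore, GLE1 is the protein that activates it there, and IPPK is the kinase that makes the small molecule IP6, which GLE1 binds. RNA of the cytoplasmic fraction was labelled with 1 dye and hybridised to Agilent whole human genome arrays. Each value is thus meant as a cytoplasmic level, relative to the other RNAs on the array. Of 4 nuclear-retained RNAs looked for, 3 had a named probe, and MALAT1, KCNQ1OT1 and MEG3 were well above background on all 12 arrays. All 4 groups were of the same line and all were transfected. The labels name the target of each siRNA and give 1 condition per target, and effects of an siRNA beyond its target were not tested.

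NRF2 (gene NFE2L2) is a transcription factor of the cap'n'collar family. In unstressed cells KEAP1 holds it for ubiquitination by a CUL3 ligase and it is degraded, while oxidants and electrophiles modify KEAP1 and let NRF2 build up. It then pairs with a small MAF protein and binds the antioxidant response element (ARE) in its target genes. BACH1 pairs with the same small MAF proteins, represses many of the same genes and HMOX1 above all, and leaves the DNA when haem rises. The targets make and recycle glutathione and thioredoxin, detoxify quinones, break down haem and store the iron that is set free.

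HMOX1 stood at 1.99-fold the control level after DBP5 siRNA, 8.58-fold after GLE1 siRNA and 11.7-fold after IPPK siRNA. None of the other 8 genes reached 3-fold in any knock-down. NQO1, GCLC, SRXN1 and FTL were higher in all 3 knock-downs, by 1.21-fold to 2.00-fold. TXNRD1 was higher after GLE1 and IPPK siRNA, and SLC7A11 was lower after DBP5 and GLE1 siRNA and higher after IPPK siRNA. OSGIN1 fell after IPPK siRNA. GCLM did not pass the test in any knock-down in the main model, although after DBP5 siRNA it passed with arrays paired by replicate number.

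The promoters of the genes were searched for the letters of elements that NRF2 and BACH1 bind. RefSeq (GRCh38.p14) gave a window of 300 bases, 250 before and 50 after the transcription start, for 7 of the 9 genes and for 8 starts, since TXNRD1 has 2, and HMOX1 and SLC7A11 had no window in the table. The core letters of the ARE, TGACNNNGC on either strand, were in 3 of the 8 windows, those of GCLM and of both TXNRD1 starts. They were in 13.3% of all 35116 promoter windows of that length. A longer element that BACH1 and NRF2 both bind with a small MAF, spelled TGCTGA, then any base, then TCA, was searched on either strand. It also spells the core, read on the other strand, where the free base is G, and it was in the OSGIN1 window and in 0.416% of all windows. The matches are shown because GCLM and TXNRD1 carry the same core and OSGIN1 carries the longer element. A link between these letters and the changes of the genes was not tested. The sequences read 5′ to 3′ on the strand of the gene, with the match in capitals and 25 bases on each side.
GCLM, chr1:93909431-93909489, minus strand, match begins 34 bases before the start: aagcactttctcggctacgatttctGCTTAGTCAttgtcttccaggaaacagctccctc
TXNRD1 first start, chr12:104215655-104215713, plus strand, match begins 99 bases before the start: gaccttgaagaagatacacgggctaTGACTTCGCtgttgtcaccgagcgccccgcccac
TXNRD1 second start, chr12:104286905-104286963, plus strand, match begins 102 bases before the start: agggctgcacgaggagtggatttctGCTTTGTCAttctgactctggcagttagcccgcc
OSGIN1, chr16:83953115-83953174, plus strand, match begins 100 bases before the start: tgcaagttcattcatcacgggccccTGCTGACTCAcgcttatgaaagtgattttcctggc
The first TXNRD1 window held another match to the core, GCTCCGTCA, which begins 8 bases before the start. The windows of NQO1, GCLC, SRXN1 and FTL held neither set of letters. Elements farther from the start lie outside these windows, and a match is a description of the letters and not a site shown to be bound.

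The values below are log2 intensities after background subtraction and cyclic loess normalization between arrays, a step that brings the arrays to one scale. It also keeps the median change of all genes close to none, so higher and lower are relative to the other RNAs on the arrays. The paper reports that poly(A) RNA built up in the nucleus after each knock-down. Whether total cytoplasmic mRNA per cell fell was not tested, so a rise given below need not be a rise per cell. A difference of 1 is a 2-fold change, and levels of different genes are not compared because each probe has its own brightness. Ratios are to the mean of the 3 control arrays with the SD over the 3 arrays of the knock-down, and adjusted p-values are from limma over 20821 genes in each comparison. All 10 probes were well above background on all 12 arrays and none was saturated. The siRNA targets fell in their own knock-downs, DDX19B to 0.0643, GLE1 to 0.102 and IPPK to 0.186 of control. Of 6 mesenchymal and bone lineage markers, 5 were well above background on all 12 arrays, and COL1A2 was on 5. Of 7 markers of blood, epithelial and endothelial cells, 3 (PTPRC, EPCAM and CDH5) were above background on all 12 arrays, and CDH1 on none of the control arrays and on 8 of the 9 others. The summed linear intensity of the 7 markers ran from 907 to 1080 on the control arrays, 662 to 777 with DBP5 siRNA, 811 to 959 with GLE1 siRNA and 550 to 751 with IPPK siRNA. The sum is mostly EPCAM, whose ratios to control were 0.657, 0.748 and 0.527 after DBP5, GLE1 and IPPK siRNA (adjusted p = 0.0398, 0.128 and 0.0047), and it hides CDH1, which read 3.33 to 3.71 on the control arrays, 4.26 to 4.56 with DBP5 siRNA, 6.41 to 7.02 with GLE1 siRNA and 4.47 to 5.05 with IPPK siRNA. Of the 5 lineage markers above background on all 12 arrays, 1 was higher and 1 lower after DBP5 siRNA, 0 and 1 after GLE1 siRNA, and 0 and 2 after IPPK siRNA, where COL1A1 was at 0.253 of control (adjusted p = 1.96e-08). Of all genes, 27.3%, 32% and 27.3% were higher and 27.1%, 30.4% and 28.2% lower. Of the nuclear RNAs, KCNQ1OT1 rose 1.59-fold, 1.85-fold and 1.17-fold (adjusted p = 1.7e-05, 1.25e-06 and 0.019), MEG3 rose 1.27-fold after GLE1 siRNA (adjusted p = 0.00875), and MALAT1 fell to 0.472 of control after IPPK siRNA (adjusted p = 0.00378). The part of these markers and RNAs in the results below was not tested. In RNA from many cells, fewer cells that express a gene and less RNA per cell cannot be told apart.

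Haem oxygenase 1, the product of HMOX1, opens haem into biliverdin, carbon monoxide and iron. The control arrays read 13.91, 13.85 and 13.65 for HMOX1, and the DBP5 siRNA arrays 14.86, 14.81 and 14.73. The GLE1 siRNA arrays read 16.93, 16.99 and 16.80, and the IPPK siRNA arrays 17.36, 17.33 and 17.36. The 4 groups did not overlap and lay in the order control, DBP5, GLE1, IPPK. The ratios were 1.99 ± 0.0953, 8.58 ± 0.582 and 11.7 ± 0.154 (SD, n = 3 arrays each). Among the 20821 genes kept, HMOX1 had the 1135th highest change after DBP5 siRNA, the 48th after GLE1 siRNA and the 4th after IPPK siRNA.

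FTL encodes the light chain of ferritin, the shell in which cells store iron. Its brighter probe read 15.95, 15.89 and 15.92 on the control arrays and 16.28, 16.39 and 16.46 with DBP5 siRNA. With GLE1 siRNA it read 16.66, 16.59 and 16.58, and with IPPK siRNA 16.12, 16.24 and 16.22. Every knock-down array lay above every control array, with GLE1 highest and IPPK nearest to control, an order unlike that of HMOX1. FTL rose 1.37-fold ± 0.0845 (adjusted p = 6.62e-05), 1.61-fold ± 0.0518 (adjusted p = 1.91e-06) and 1.21-fold ± 0.0546 (adjusted p = 0.00233) after DBP5, GLE1 and IPPK siRNA. The dimmer FTL probe gave 1.39-fold, 1.68-fold and 1.29-fold. FTL has processed copies elsewhere in the genome, and signal from them could not be separated from FTL.

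**Figure D1:**
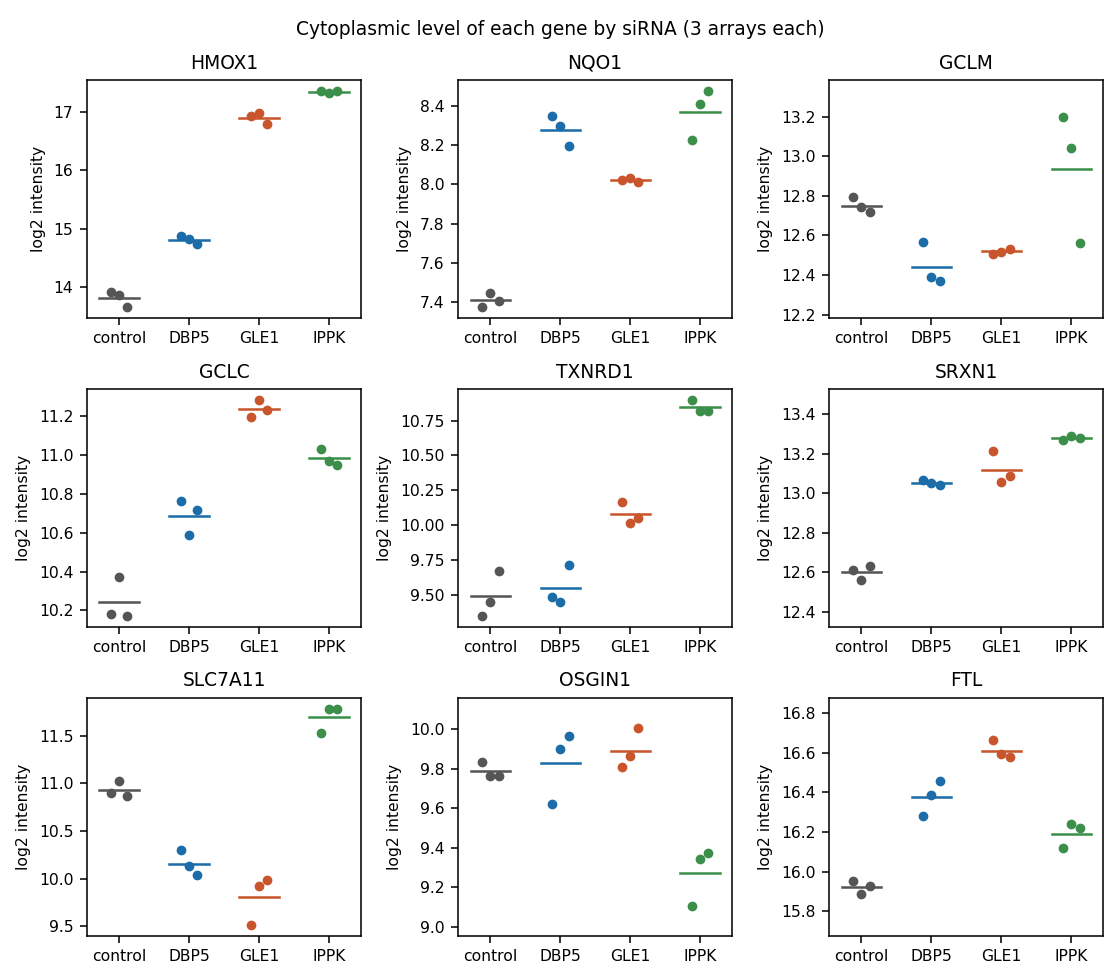
Log2 intensity (vertical axis, one scale per gene) of the 9 genes on the 12 arrays by siRNA, each point an array and each line the mean of 3. HMOX1 stands at means of 13.81, 14.80, 16.91 and 17.35 without overlap between siRNAs, whereas SLC7A11 lies below control with DBP5 and GLE1 siRNA and above it with IPPK siRNA.

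Glutathione is made from cysteine in a first, rate-limiting step by glutamate-cysteine ligase, whose catalytic subunit is GCLC and whose modifier subunit is GCLM. GCLC read 10.18, 10.37 and 10.17 on the control arrays and 10.76, 10.59 and 10.71 with DBP5 siRNA. It read 11.20, 11.28 and 11.23 with GLE1 siRNA and 11.03, 10.97 and 10.95 with IPPK siRNA. The groups did not overlap, and GLE1 siRNA had the highest values. GCLC rose 1.36-fold ± 0.0851 (adjusted p = 0.000239), 2.00-fold ± 0.0602 (adjusted p = 3.79e-07) and 1.67-fold ± 0.0486 (adjusted p = 5.48e-06).

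The modifier subunit did not move with the catalytic one. GCLM read 12.79, 12.74 and 12.72 on the control arrays, 12.57, 12.39 and 12.37 with DBP5 siRNA and 12.51, 12.52 and 12.53 with GLE1 siRNA. The IPPK siRNA arrays spread widely, at 13.20, 13.04 and 12.56, so that 2 of them lay above and 1 below all control arrays. The ratios were 0.808 ± 0.0617 (adjusted p = 0.075), 0.852 ± 0.00734 (adjusted p = 0.159) and 1.14 ± 0.25 (adjusted p = 0.276), and none passed the test. All DBP5 and GLE1 siRNA arrays were below all control arrays, and with the replicate number as a block the DBP5 siRNA value passed (log2 change -0.31, adjusted p = 0.0471). Without IPPK replicate 3, the IPPK siRNA value was 0.37 on the log2 scale and passed (adjusted p = 0.00238). The GLE1 siRNA value passed in limma with only the 6 arrays compared (log2 change -0.23, adjusted p = 0.00519).

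SLC7A11 encodes the transporter that brings in cystine, the source of cysteine for glutathione, in exchange for glutamate. It read 10.90, 11.02 and 10.86 on the control arrays and 10.30, 10.13 and 10.04 with DBP5 siRNA. The GLE1 siRNA arrays read 9.52, 9.92 and 9.99, and the IPPK siRNA arrays 11.52, 11.78 and 11.77. The groups did not overlap, with DBP5 and GLE1 siRNA below control and IPPK siRNA above it. SLC7A11 fell to 0.586 ± 0.0551 of control after DBP5 siRNA (adjusted p = 0.000422) and to 0.460 ± 0.078 after GLE1 siRNA (adjusted p = 2e-05), and rose 1.70-fold ± 0.168 after IPPK siRNA (adjusted p = 0.000435).

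Thioredoxin reductase 1, the product of TXNRD1, keeps thioredoxin reduced with NADPH. TXNRD1 read 9.35, 9.45 and 9.67 on the control arrays and 9.49, 9.45 and 9.71 with DBP5 siRNA, which overlapped. With GLE1 siRNA it read 10.17, 10.02 and 10.05, and with IPPK siRNA 10.90, 10.82 and 10.82. The last 2 groups lay above all control arrays, and IPPK siRNA above GLE1 siRNA. TXNRD1 rose 1.50-fold ± 0.0821 after GLE1 siRNA (adjusted p = 0.000253) and 2.56-fold ± 0.0828 after IPPK siRNA (adjusted p = 6.54e-07). After DBP5 siRNA the ratio was 1.04 ± 0.105, with an interval of 0.902 to 1.20 (95%, adjusted p = 0.642), and its sign turned without control replicate 1 (log2 change -0.01) or without DBP5 replicate 3 (-0.02). The gene has several starts and transcript forms, and the array has 1 probe for it, so forms that this probe does not match were not measured.

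Sulfiredoxin, the product of SRXN1, restores peroxiredoxins that peroxide has over-oxidised. SRXN1 read 12.61, 12.56 and 12.63 on the control arrays, 13.07, 13.05 and 13.04 with DBP5 siRNA, 13.21, 13.06 and 13.09 with GLE1 siRNA and 13.27, 13.29 and 13.28 with IPPK siRNA. All knock-down arrays lay above all control arrays, and the DBP5 and GLE1 siRNA arrays overlapped. The rises were 1.37-fold ± 0.0143 (adjusted p = 2.01e-05), 1.43-fold ± 0.0822 (adjusted p = 4.87e-06) and 1.60-fold ± 0.0102 (adjusted p = 9.26e-07).

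NQO1 encodes a quinone reductase and is often used as a readout of NRF2. It read 7.38, 7.45 and 7.41 on the control arrays and 8.35, 8.30 and 8.19 with DBP5 siRNA. It read 8.02, 8.03 and 8.01 with GLE1 siRNA and 8.22, 8.41 and 8.47 with IPPK siRNA. All knock-down arrays were above control, and GLE1 siRNA, where HMOX1 stood at 8.58-fold, gave the lowest of the 3. NQO1 rose 1.82-fold ± 0.0972 (adjusted p = 1.79e-06), 1.53-fold ± 0.0111 (adjusted p = 1.62e-05) and 1.94-fold ± 0.172 (adjusted p = 7.64e-07) after DBP5, GLE1 and IPPK siRNA. After DBP5 siRNA the changes of NQO1 and HMOX1 were of like size, at 0.87 and 1.00 on the log2 scale.

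OSGIN1 encodes a growth inhibitor induced by oxidative stress. It read 9.84, 9.76 and 9.76 on the control arrays, 9.62, 9.90 and 9.96 with DBP5 siRNA and 9.81, 9.86 and 10.01 with GLE1 siRNA. These 3 groups overlapped, while the IPPK siRNA arrays, at 9.11, 9.34 and 9.37, lay below all others. OSGIN1 fell to 0.701 ± 0.0687 of control after IPPK siRNA (adjusted p = 0.0014), the condition in which HMOX1 was highest. The ratios after DBP5 siRNA (1.03 ± 0.127, adjusted p = 0.774) and GLE1 siRNA (1.08 ± 0.0776, adjusted p = 0.404) did not pass, with intervals (95%) of 0.881 to 1.20 and 0.920 to 1.26. The DBP5 siRNA value turned sign, to -0.03 on the log2 scale, without DBP5 replicate 3.

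Counted over the 8 genes without HMOX1, 4 were higher and 1 lower after DBP5 siRNA, 5 were higher and 1 lower after GLE1 siRNA, and 6 were higher and 1 lower after IPPK siRNA. Of all 20821 genes, 27.3% were called higher and 27.1% lower after DBP5 siRNA, 32% and 30.4% after GLE1 siRNA, and 27.3% and 28.2% after IPPK siRNA. With HMOX1 included, the arrays of 5, 6 and 7 of the 9 genes lay wholly above the control arrays (29.3%, 35.5% and 31% of all genes), and those of 2, 2 and 1 wholly below (30.3%, 33.4% and 32.8%). In the fit of each probe, which has 1 more FTL probe, 5, 6 and 7 probes were higher (27.6%, 32.5% and 27.4% of all probes) and 1 was lower in each knock-down (27%, 30.1% and 27.9%). Since the genes were chosen through the same contrasts, nothing is read from their counts against these shares. The median log2 change of the 8 genes was 0.25, 0.55 and 0.71 after DBP5, GLE1 and IPPK siRNA, beside -0.02, 0.03 and -0.03 over all genes. The 3 comparisons use the same control arrays. Only TXNRD1 and SRXN1 had group means in the order of HMOX1, with control lowest, then DBP5, GLE1 and IPPK, and in TXNRD1 control and DBP5 siRNA overlapped, as did DBP5 and GLE1 siRNA in SRXN1.

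**Figure D2:**
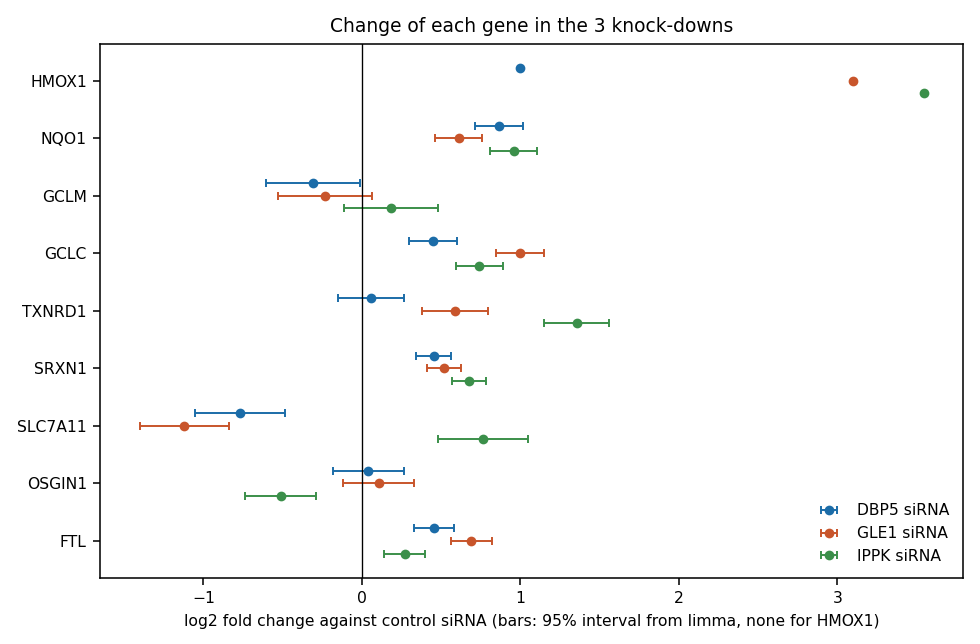
Log2 fold change against control siRNA (horizontal axis) of each gene after DBP5, GLE1 or IPPK siRNA, with bars for the 95% interval from limma and none for HMOX1, which carries no test. HMOX1 lies between 1.00 with DBP5 siRNA and 3.55 with IPPK siRNA, and the other 8 genes lie between -1.12 and 1.35.

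Arrays with the same replicate number, 1 of each siRNA, are taken as a slide, so each difference was also taken within a slide. The sample labels give only the number, which may also stand for the independent experiment of the methods. HMOX1 differed from control by 0.95 to 1.08 with DBP5 siRNA, 3.02 to 3.15 with GLE1 siRNA and 3.45 to 3.71 with IPPK siRNA on the log2 scale within the 3 slides. NQO1, GCLC, TXNRD1, SRXN1 and FTL were higher than control on all 3 slides in all 3 knock-downs, although the TXNRD1 difference with DBP5 siRNA was as low as 0.0012. SLC7A11 was lower on all 3 slides with DBP5 siRNA (-0.89 to -0.59) and with GLE1 siRNA (-1.38 to -0.88), and higher on all 3 with IPPK siRNA (0.63 to 0.91). GCLM was lower on all 3 slides with DBP5 siRNA (-0.35 to -0.23) and with GLE1 siRNA (-0.28 to -0.18), and OSGIN1 was lower on all 3 with IPPK siRNA (-0.73 to -0.39). GCLM with IPPK siRNA, and OSGIN1 with DBP5 and GLE1 siRNA, were higher on 2 slides and lower on 1.

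The knock-downs were next compared with each other in the same model, in which the control arrays enter the estimate of the spread but not the difference. SLC7A11 differed most of the 8 genes in the comparisons with IPPK siRNA. It was 0.271 of the IPPK siRNA level with GLE1 siRNA (adjusted p = 4.55e-07) and 0.345 with DBP5 siRNA (adjusted p = 4.07e-06). TXNRD1 was likewise lower with GLE1 siRNA than with IPPK siRNA (ratio 0.588, adjusted p = 3.88e-05) and lower still with DBP5 siRNA (0.408, adjusted p = 1.58e-06). FTL and OSGIN1 ran the other way. FTL was 1.34-fold and OSGIN1 1.53-fold higher with GLE1 than with IPPK siRNA (adjusted p = 9.99e-05 and 0.000346). GCLC was 1.47-fold higher with GLE1 than with DBP5 siRNA (adjusted p = 5.1e-05) and 1.19-fold higher than with IPPK siRNA (adjusted p = 0.00762). HMOX1 with GLE1 siRNA was 4.30-fold the level with DBP5 siRNA and 0.734 of that with IPPK siRNA.

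Of the 8 genes, 3 were higher and 2 lower with GLE1 than with DBP5 siRNA, where 27.7% and 27.2% of all genes were called. With GLE1 against IPPK siRNA, 3 were higher and 5 lower (31.2% and 29.6% of all genes), and with DBP5 against IPPK siRNA, 2 were higher and 5 lower (24.7% and 24.4%). Both comparisons with IPPK use the same IPPK arrays. Some of the smaller differences did not pass once 1 array was left out. The lower SLC7A11 with GLE1 than with DBP5 siRNA (log2 difference -0.35, adjusted p = 0.0387) did not pass without DBP5 replicate 1 (adjusted p = 0.128), DBP5 replicate 2 (0.0698) or GLE1 replicate 1 (0.131). The SLC7A11 difference was then -0.28, -0.36 and -0.20. The lower SRXN1 with GLE1 than with IPPK siRNA (-0.16, adjusted p = 0.0159) did not pass without GLE1 replicate 2 (adjusted p = 0.07), GLE1 replicate 3 (0.0568) or IPPK replicate 2 (0.0501). The SRXN1 difference was then -0.1285, -0.145 and -0.1548. The lower GCLM with GLE1 than with IPPK siRNA (-0.41, adjusted p = 0.0199) did not pass without IPPK replicate 1 (adjusted p = 0.0718) or IPPK replicate 2 (0.0688). The GCLM difference was then -0.28 and -0.36. The higher FTL with DBP5 than with IPPK siRNA (0.18, adjusted p = 0.0224) did not pass without DBP5 replicate 2 (adjusted p = 0.0572), DBP5 replicate 3 (0.0815) or IPPK replicate 1 (0.0801). The FTL difference was then 0.18, 0.14 and 0.15. With the control arrays and the third knock-down left out of the fit, so that it held only the 6 arrays compared, 4 calls were lost. These were GCLM of GLE1 against IPPK siRNA (adjusted p = 0.076) and of DBP5 against IPPK siRNA (0.0624, where the model of all arrays gave 0.0109 for a log2 difference of -0.49), SLC7A11 of GLE1 against DBP5 siRNA (0.0847) and FTL of DBP5 against IPPK siRNA (0.0839). The log2 differences were the same as in the main model, and only the estimate of the spread changed. SRXN1 of GLE1 against IPPK siRNA did not pass with quantile normalization (adjusted p = 0.0692), and SLC7A11 of GLE1 against DBP5 siRNA did not pass with no filter on dim probes (0.0588). NQO1 did not differ past the threshold between DBP5 and IPPK siRNA (ratio 0.939, interval 0.846 to 1.04, adjusted p = 0.303), and did without IPPK replicate 1 (adjusted p = 0.0427).

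A list of 31 further genes known as NRF2 targets was counted in the same fit. It holds enzymes that supply NADPH, enzymes of the aldo-keto reductase and glutathione transferase families, and export pumps. A named probe was found for 29, all of which passed the filter on dim probes. Of these 29, 18 were higher and 2 lower after DBP5 siRNA, 18 were higher and 3 lower after GLE1 siRNA, and 18 were higher and 1 lower after IPPK siRNA. The share called higher was 62.1% in each knock-down, beside 27.3%, 32% and 27.3% of all genes, and the share called lower was 6.90%, 10.3% and 3.45%, beside 27.1%, 30.4% and 28.2%. The median log2 change of the list was 0.42, 0.38 and 0.32, beside -0.02, 0.03 and -0.03 over all genes. The gene lists were chosen with earlier results of these data known, and the comparisons use the same control arrays. These shares are therefore not independent support for a shared change, and the same holds for the lists below. The core ARE letters were in 9 of the 28 promoter windows that RefSeq gave for 22 of the list's genes, and the longer element was in none of them.

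The genes of this list with the largest changes were enzymes and a pump. AKR1C1, an aldo-keto reductase of steroids and carbonyls, rose 3.76-fold ± 0.234 after DBP5 siRNA (adjusted p = 6.79e-08), 4.90-fold ± 0.708 after GLE1 siRNA (adjusted p = 9.24e-09) and 4.36-fold ± 0.195 after IPPK siRNA (adjusted p = 2.65e-08). It read 6.87, 6.90 and 6.95 on the control arrays and 8.76 to 9.42 on all others. Its sequence is close to those of other AKR1C genes, so part of this signal may be theirs. AKR1B10, a related reductase, rose 1.34-fold, 1.90-fold and 3.36-fold after DBP5, GLE1 and IPPK siRNA (adjusted p = 0.00425, 1.17e-05 and 1.5e-07). KYNU, an enzyme of tryptophan breakdown, rose 1.69-fold, 2.24-fold and 2.94-fold (adjusted p = 1.56e-05, 3.71e-07 and 7.16e-08). Both had group means in the order of HMOX1.

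ABCC1, ABHD4 and IDH1 followed other orders. ABCC1, a pump that exports glutathione conjugates, rose 2.19-fold and 3.04-fold after DBP5 and GLE1 siRNA (adjusted p = 3.44e-07 and 1.49e-08) and 1.18-fold after IPPK siRNA (adjusted p = 0.0159). ABHD4, a lipid hydrolase, rose 1.48-fold, 2.62-fold and 1.36-fold (adjusted p = 0.000287, 2.26e-07 and 0.00142). IDH1, which makes NADPH in the cytosol, rose 2.30-fold, 1.66-fold and 1.96-fold (adjusted p = 2.4e-08, 3.49e-07 and 7.55e-08).

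TXN and FTH1 are the targets of this list nearest in function to TXNRD1 and FTL. TXN, the thioredoxin that TXNRD1 reduces, fell to 0.800 ± 0.0477 of control after DBP5 siRNA (adjusted p = 0.00058), and its ratios after GLE1 and IPPK siRNA were 0.960 and 0.982 (adjusted p = 0.392 and 0.728). FTH1, the heavy chain of ferritin, rose 1.22-fold after GLE1 siRNA (adjusted p = 0.00326), and its ratios after DBP5 and IPPK siRNA were 1.11 and 1.07 (adjusted p = 0.079 and 0.231). The 3 FTH1 probes disagreed: of the dimmer ones, 1 read 16.97 to 17.12 on the control arrays and 17.39 to 17.82 on all others, while the other read 17.20 to 17.34 and 16.99 to 17.56. Named after their values were seen, PIR, a nuclear iron protein, and CBR3, a carbonyl reductase, fell after GLE1 siRNA (to 0.634 and 0.709 of control, adjusted p = 1.15e-05 and 0.0194) and rose after IPPK siRNA (1.83-fold and 1.89-fold, adjusted p = 1.95e-06 and 0.000571), directions they had in common with SLC7A11. UGDH, also named after its values were seen, fell in each knock-down, to 0.868, 0.810 and 0.872 of control (adjusted p = 0.00658, 0.000415 and 0.00767). The brighter probe of ABCC3, named likewise, rose 1.87-fold after IPPK siRNA (adjusted p = 1.75e-06). Its dimmer probe passed as lower there (0.839 of control, adjusted p over probes = 0.00722).

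**Figure D3:**
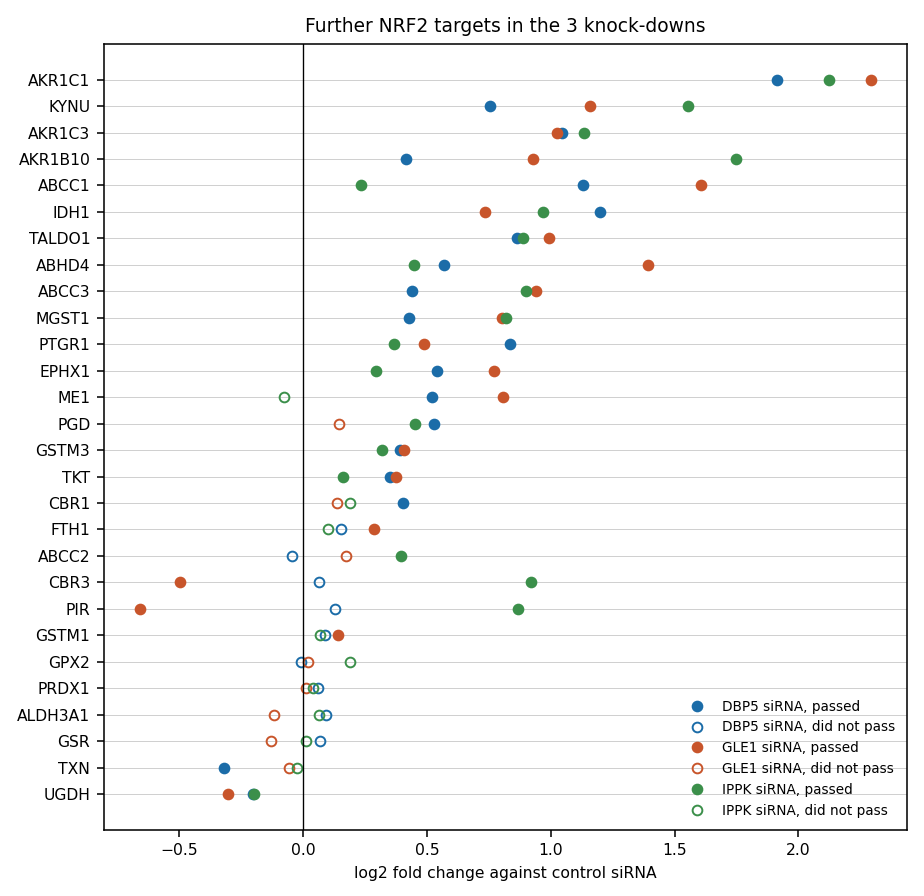
Log2 fold change against control siRNA (horizontal axis) of 28 of the 29 further NRF2 targets, filled where limma's adjusted p was under 0.05 and open where it was not. Most genes lie to the right of 0 in all 3 knock-downs, with AKR1C1 at 1.91 to 2.29 the highest, and PIR and CBR3 lie on opposite sides of 0 with GLE1 and IPPK siRNA.

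HMOX1 and FTL belong to the handling of haem and iron, and 19 other genes of that kind were counted. Of these, 9 were higher and 4 lower after DBP5 siRNA, 11 and 2 after GLE1 siRNA, and 10 and 5 after IPPK siRNA. As shares, 47.4%, 57.9% and 52.6% were higher and 21.1%, 10.5% and 26.3% lower, beside 27.3%, 32% and 27.3% higher and 27.1%, 30.4% and 28.2% lower of all genes. The median log2 change was 0.17, 0.32 and 0.32. The 2 lower after GLE1 siRNA were 4 with quantile normalization and 1 to 3 with single arrays left out. Each gene is counted by its brightest probe, and other probes can disagree. SLC48A1, named after its values were seen, was counted lower after DBP5 and IPPK siRNA (0.658 and 0.752 of control). Its dimmer probe passed as higher (1.32-fold and 1.18-fold, limma adjusted p over probes = 0.00037 and 0.0106). HMOX2, the constitutive haem oxygenase, rose 1.60-fold ± 0.118, 2.29-fold ± 0.175 and 1.45-fold ± 0.0163 (adjusted p = 1.24e-05, 1.04e-07 and 6.95e-05) after DBP5, GLE1 and IPPK siRNA, so its lowest rise was where HMOX1 was highest. SLC40A1 encodes ferroportin, the exporter of iron, and rose 1.94-fold after GLE1 and 2.50-fold after IPPK siRNA (adjusted p = 6.33e-08 and 1.18e-08), with a ratio of 1.09 after DBP5 siRNA (adjusted p = 0.0589). FECH, which puts iron into haem, rose 1.38-fold, 1.54-fold and 1.57-fold (adjusted p = 7.71e-05, 6.37e-06 and 6.49e-06), while its dimmer probe passed in none (ratios 0.893, 0.906 and 1.01, adjusted p over probes = 0.565, 0.599 and 0.958).

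The iron regulatory proteins, which bind the messages of ferritin and of the transferrin receptor, went in opposite directions after DBP5 siRNA and both rose after GLE1 siRNA. ACO1, the first of them, rose 1.83-fold, 2.26-fold and 1.53-fold (adjusted p = 1.95e-05, 1.31e-06 and 0.000259). IREB2, the other, fell to 0.607 of control after DBP5 siRNA (adjusted p = 3.99e-06), rose 1.27-fold after GLE1 siRNA (adjusted p = 0.00062) and was at 0.945 after IPPK siRNA (adjusted p = 0.301). ABCB6, a porphyrin transporter, rose 1.48-fold, 2.39-fold and 1.41-fold (adjusted p = 0.0001, 1.64e-07 and 0.000244). STEAP3, an iron reductase, rose 1.76-fold after DBP5 siRNA (adjusted p = 1.47e-06) and fell to 0.592 of control after IPPK siRNA (adjusted p = 2.33e-06), with a ratio of 1.00 after GLE1 siRNA (adjusted p = 0.964). The dimmer STEAP3 probe disagreed, with ratios of 2.03, 1.66 and 1.03 after DBP5, GLE1 and IPPK siRNA (adjusted p over probes = 3.66e-08, 1.74e-07 and 0.505).

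A further list of 22 held other genes of antioxidant defence, mostly enzymes and some of them also known as NRF2 targets. Of these, 8 were higher and 7 lower after DBP5 siRNA, 12 and 6 after GLE1 siRNA, and 7 and 4 after IPPK siRNA. As shares, 36.4%, 54.5% and 31.8% were higher and 31.8%, 27.3% and 18.2% lower, beside 27.3%, 32% and 27.3% higher and 27.1%, 30.4% and 28.2% lower of all genes. The medians were 0.11, 0.16 and 0.06 on the log2 scale. The 4 lower after IPPK siRNA were 7 with scaling to the 75th percentile, which also lowered the median of all genes there. TXNIP, the inhibitor of thioredoxin, fell to 0.472 ± 0.0595, 0.623 ± 0.0578 and 0.280 ± 0.0124 of control with DBP5, GLE1 and IPPK siRNA (adjusted p = 5.62e-06, 0.000124 and 1.08e-07). MSRA and MSRB2, which repair oxidised methionine, rose in all 3 knock-downs, MSRA by 1.81-fold, 1.55-fold and 1.98-fold (adjusted p = 2.57e-06, 1.67e-05 and 8.15e-07) and MSRB2 by 2.69-fold, 1.25-fold and 2.00-fold (adjusted p = 6.88e-09, 0.000147 and 4.66e-08). The dimmer MSRB2 probe gave 5.04 and 2.96 after DBP5 and IPPK siRNA (adjusted p over probes = 1.31e-08 and 1.39e-07) and did not pass after GLE1 siRNA (1.11, adjusted p = 0.175). GLRX, a glutaredoxin, fell to 0.815 and 0.556 of control after DBP5 and GLE1 siRNA (adjusted p = 0.00333 and 1.15e-06) and rose 1.75-fold after IPPK siRNA (adjusted p = 2.58e-06), as SLC7A11 did. GPX3, a glutathione peroxidase, fell to 0.754, 0.885 and 0.492 (adjusted p = 0.000295, 0.0335 and 3.23e-07).

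**Figure D4:**
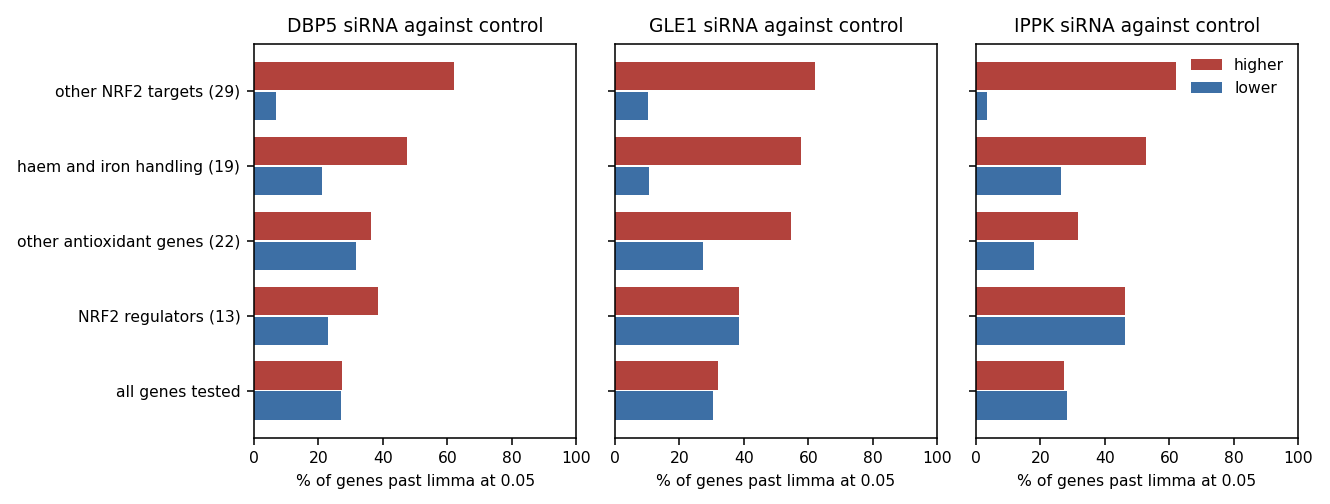
Percent of genes (horizontal axis) past limma's threshold of 0.05 as higher or lower in each knock-down, for 4 gene lists with the number of genes tested in brackets and for all genes tested. The further NRF2 targets stand at 62.1% higher in each panel, where all genes stand at 27.3%, 32% and 27.3%. The lists were chosen with earlier results of these data known.

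Last, the genes that set the activity of NRF2 were examined. The probe of NFE2L2 itself was well above background on 3 of the 12 arrays, so it was left out and no change is given for it. KEAP1 read 11.73, 11.68 and 11.82 on the control arrays, 11.54 to 11.86 with DBP5 siRNA, 11.86 to 11.96 with GLE1 siRNA and 11.59 to 11.78 with IPPK siRNA. Its ratios were 0.965 ± 0.107, 1.12 ± 0.0419 and 0.970 ± 0.0664, and none passed the test (adjusted p = 0.663, 0.126 and 0.699). Of the 13 regulators tested from a list of 14, 5 were higher and 3 lower after DBP5 siRNA, 5 and 5 after GLE1 siRNA, and 6 and 6 after IPPK siRNA. As shares, 38.5%, 38.5% and 46.2% were higher and 23.1%, 38.5% and 46.2% lower, beside 27.3%, 32% and 27.3% higher and 27.1%, 30.4% and 28.2% lower of all genes. The medians were -0.03, -0.01 and -0.04 on the log2 scale.

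BACH1, the repressor of HMOX1, was lower after GLE1 and IPPK siRNA. It read 12.66, 12.71 and 12.65 on the control arrays and 12.75, 12.60 and 12.60 with DBP5 siRNA, which overlapped. With GLE1 siRNA it read 11.96, 11.90 and 11.93, and with IPPK siRNA 11.44, 11.43 and 11.39. BACH1 fell to 0.595 ± 0.0119 of control after GLE1 siRNA (adjusted p = 4.06e-07) and to 0.419 ± 0.00788 after IPPK siRNA (adjusted p = 1.74e-08), and its ratio after DBP5 siRNA was 0.980 ± 0.0599 (adjusted p = 0.683). A second, dimmer BACH1 probe read 7.37 to 7.42 on the control arrays, 7.14 to 7.26 with DBP5 siRNA, 6.69 to 7.12 with GLE1 siRNA and 7.05 to 7.14 with IPPK siRNA. It also passed as lower after GLE1 and IPPK siRNA, at 0.731 and 0.815 of control (adjusted p over probes = 0.0017 and 0.0221), and was lowest with GLE1 siRNA where the brighter one was lowest with IPPK siRNA. Whether the level of BACH1 bears on that of HMOX1 was not tested.

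The small MAF genes, whose products pair with both NRF2 and BACH1, were lower than control in most knock-downs. MAFG fell to 0.504 ± 0.0379, 0.495 ± 0.00272 and 0.532 ± 0.00654 of control with DBP5, GLE1 and IPPK siRNA (adjusted p = 5.74e-07, 2.62e-07 and 9.21e-07), and its dimmer probe was below control on all knock-down arrays as well. MAFF fell to 0.611, 0.772 and 0.567 (adjusted p = 0.000243, 0.0115 and 8.63e-05). MAFK fell to 0.677 and 0.518 after DBP5 and IPPK siRNA (adjusted p = 6.39e-06 and 1.25e-07), with a ratio of 0.947 after GLE1 siRNA (adjusted p = 0.221). BTRC, part of a ligase that marks NRF2 for degradation apart from KEAP1, rose 2.77-fold, 2.57-fold and 1.84-fold (adjusted p = 2.27e-08, 1.56e-08 and 5.74e-07). SQSTM1, named after its values were seen, encodes a protein that binds KEAP1 and is also counted as an NRF2 target, and it rose 1.24-fold, 1.42-fold and 1.74-fold (adjusted p = 0.0004, 7.29e-06 and 3.25e-07).

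**Figure D5:**
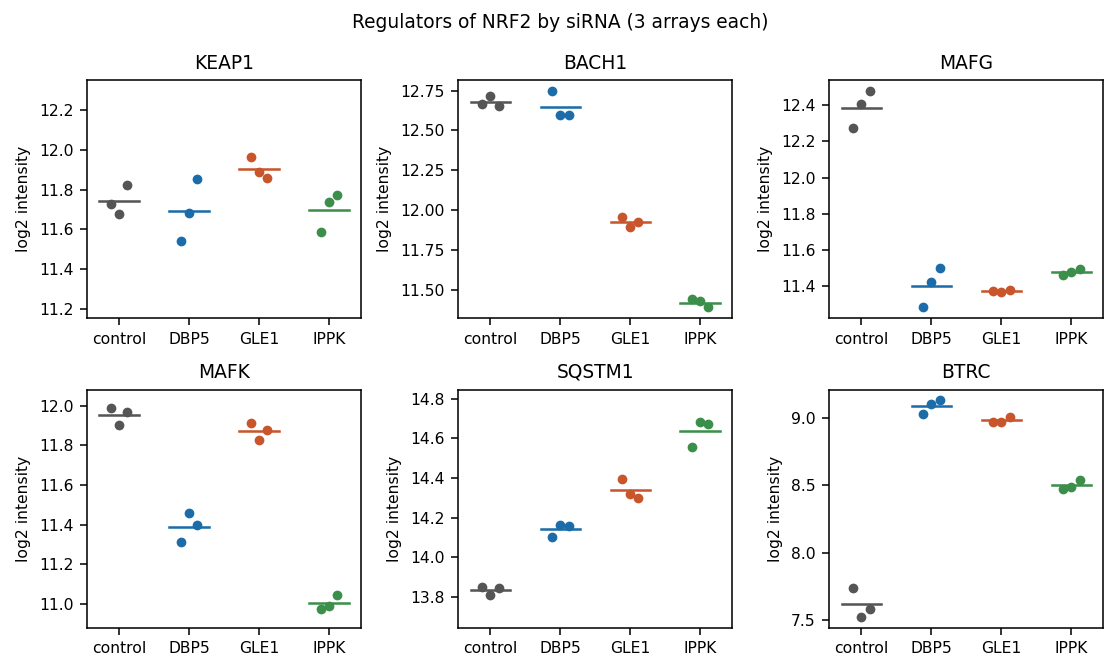
Log2 intensity (vertical axis, one scale per gene) of 6 genes that act on NRF2, on the 12 arrays by siRNA, each point an array and each line the mean of 3. BACH1 lies near 12.6 to 12.7 with control and DBP5 siRNA, near 11.9 with GLE1 siRNA and near 11.4 with IPPK siRNA, while MAFG is lower in all 3 knock-downs.

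Likeness to HMOX1 was described over the 12 arrays. Among 18416 genes well above background on all of them, with the 9 genes left out, the highest Pearson's r with HMOX1 were those of GORASP2 (0.996), MEF2C (0.992), RNF141 (0.992), RNGTT (0.991) and TMED5 (0.991). TMED5, a protein of vesicles early in secretion, had group means of 11.14 with control, 11.97 with DBP5, 13.32 with GLE1 and 13.41 with IPPK siRNA. GORASP2, a protein of Golgi stacking, had 12.62, 12.96, 13.55 and 13.67. Of the 8 other genes, r with HMOX1 was 0.905 for GCLC, 0.878 for SRXN1, 0.877 for TXNRD1, 0.675 for NQO1, 0.558 for FTL, 0.221 for GCLM, 0.144 for SLC7A11 and -0.485 for OSGIN1. The first 5 genes were picked for this likeness, the 12 arrays fall into 4 groups, and the r values carry no test.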

How the data were processed

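Cytoplasmic RNA was hybridised to 12 Agilent arrays with a single dye, 3 per siRNA, and siRNA and replicate number were taken from the sample labels. The 9 genes and the gene lists were chosen with earlier results of these data known. For each array the authors deposited the output of Feature Extraction 10.7.3.1, a linear intensity per spot after subtraction of the local background, with flags. A table of log2 values from the authors, which the methods describe as LOESS normalized, followed the log2 of the median spot signal with no background removed (Pearson's r of 0.9998 or more over probes, column medians 7.75 to 7.76).

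Here the log2 of the background-subtracted intensity was normalized by cyclic loess between arrays. Control spots and 169 to 358 outlier spots per array were left out, and spots of a probe were averaged. Probes were named through accessions in the RefSeq gene table (26449 of 34127, 77.5%), and otherwise by the name that the array design gives. The brightest probe stood for a gene, and a gene was kept if that probe was well above background on every array of 1 siRNA or more, which left 20821 genes. No count of molecules stands behind an intensity, so precision is set by signal over background and by the 3 arrays per siRNA. The share of probes well above background was 74.8% to 77.4% on control arrays, 75.7% to 77.7% with DBP5, 73.4% to 77.0% with GLE1 and 70.9% to 73.8% with IPPK siRNA.

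Groups were compared by limma 3.58.1 in R 4.3.3, as a two-sided test in 1 model with a mean for each siRNA, and p-values were adjusted by Benjamini-Hochberg over all genes of a comparison, with a threshold of 0.05. In simulated data for each knock-down against control, 200 genes among 20821 were changed 2-fold. The step recovered 174 (87%) with 12 false calls for DBP5, 176 (88%) with 10 for GLE1 and 177 (88.5%) with 5 for IPPK siRNA. The measured arrays had far more genes called, 27.3% higher and 27.1% lower after DBP5 siRNA, so these rates need not hold for them. Deviations from the group means correlated at 0.318 to 0.513 (median 0.38) in the 18 pairs of arrays with the same replicate number. In the 36 other pairs they correlated at -0.285 to -0.0493 (median -0.198). Deviations within a group sum to 0, so the negative values follow from the positive ones and add nothing to them. By the positive values of the first pairs the numbers do pair the arrays, whether by slide or by independent experiment. The main model has no term for this pairing, and a fit with the number as a block was run as an alternative.

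The genes named are the 9 with every probe, a fixed set of genes (NFE2L2, KEAP1, BACH1, FTH1, TXN and HMOX2, and 1 that is counted in its list and not reported here), the siRNA targets, the 3 genes of each list and knock-down with the largest change past the threshold and without overlap with control, and the 5 genes most like HMOX1, except where the text says that a gene was chosen after its values were seen. Promoter letters were searched in RefSeq windows of 300 bases. Results were recomputed with other scalings (75th percentile, quantile) and from the authors' own values. Normexp background correction was also used (offset 50, on the median spot signal, since the arrays' tables hold no mean signal). Further alternatives left out the filter on dim probes, set it to all 12 arrays, averaged the probes of a gene or used the replicate block. Others used the 6 arrays of a comparison alone or left out each array in turn. Dunnett's test (multcomp 1.4.28) and the methods' t-test, in a form paired by replicate number, were run as well. Plots were made in Python 3.11.15 (matplotlib 3.10.9).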

Additional observations from a re-analysis of the deposited data

Results flagged for a closer look

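SLC7A11, the cystine transporter, was flagged because its change against control had opposite directions in different knock-downs and the difference itself passed the test. All 3 GLE1 siRNA arrays and all 3 DBP5 siRNA arrays lay below every control array, and all 3 IPPK siRNA arrays lay above. The log2 difference of GLE1 minus IPPK siRNA was -1.884 (limma, adjusted p = 4.55e-07), and that of DBP5 minus IPPK siRNA was -1.535 (adjusted p = 4.07e-06). Both differences use the same IPPK siRNA arrays.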

How the results depend on the processing

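The 8 genes other than HMOX1 kept their direction and their side of the threshold against control in 351 of 360 combinations of gene, knock-down and alternative, and between knock-downs in 341 of 360. In the limma fits no call against control was lost, 6 were gained, and 3 values that had not passed turned sign. The gained calls were GCLM after DBP5 siRNA with normexp, with the authors' values, with the block and with only the 6 arrays compared, GCLM after GLE1 siRNA with only those 6 (adjusted p = 0.00519), and GCLM after IPPK siRNA without IPPK replicate 3. The values that turned sign were TXNRD1 after DBP5 siRNA without control replicate 1 (-0.01133) or DBP5 replicate 3 (-0.02149, range -0.02 to 0.15 over the arrays left out), OSGIN1 after DBP5 siRNA without DBP5 replicate 3 (-0.02634, range -0.03 to 0.15) and OSGIN1 of GLE1 minus DBP5 siRNA without DBP5 replicate 1 (-0.04088, range -0.04 to 0.13). HMOX1 was higher than control under every alternative run, at 0.92 to 1.05 on the log2 scale after DBP5 siRNA, 3.02 to 3.15 after GLE1 siRNA and 3.47 to 3.61 after IPPK siRNA, and in 7 of 45 combinations its value moved by more than the SD between arrays. Numbers of the 8 genes called lower went from 1 to 2 after DBP5 siRNA with normexp, with the authors' values, with only the 6 arrays compared and with the methods' t-test at an unadjusted p of 0.05, and from 1 to 2 after GLE1 siRNA with only the 6 arrays and with the methods' t-test before and after Benjamini-Hochberg adjustment. After that adjustment the methods' t-test called 2 genes higher (main 4) and 0 lower after DBP5 siRNA, where 2 were lower before it, and 0 lower after IPPK siRNA, where 1 was. The share of all genes that this t-test called is not given, so nothing is read from its counts. In the fit of each probe, those called lower went from 1 to 2 after DBP5 siRNA with normexp, the authors' values and only the 6 arrays, and after GLE1 siRNA with only the 6 arrays. Between knock-downs, 1 gene was higher with DBP5 than with IPPK siRNA with only the 6 arrays (main 2, range 1 to 2 over the arrays left out), 1 was lower with GLE1 than with DBP5 siRNA with no filter or only the 6 arrays (main 2, range 1 to 2), and those lower with GLE1 than with IPPK siRNA ranged from 3 to 5. Of the haem and iron genes, those called lower after GLE1 siRNA were 2, and were 4 with quantile normalization, 1 with only the 6 arrays, and 1 to 3 over the arrays left out. Of the other antioxidant genes, 4 were called lower after IPPK siRNA and 7 with scaling to the 75th percentile, a scaling that moved the median of all genes for GLE1 minus IPPK siRNA from 0.04 to 0.13 and for IPPK siRNA minus control from -0.03 to -0.09 on the log2 scale. The causes were not tested. With 3 arrays per siRNA, the precision is limited by the number of arrays and by the signal over background.

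With the replicate number as a block, which the pairing of the arrays allows, GCLM after DBP5 siRNA passed (adjusted p = 0.0471). With it, 2 of the 8 genes and 2 of their probes were called lower in place of 1. The block changed no other call of the 8 genes. Dunnett's test per gene gave the same counts as limma.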
